A study of Mus musculus with 4 samples.

Results

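Endothelial-like cells were examined in mouse carotid arteries 3, 7 and 14 days after wire injury, a procedure in which a wire passed through the vessel strips off its inner lining. Cell barcodes were taken as members when they had no UMI (unique molecular identifier, 1 captured transcript molecule) of the leukocyte gene Ptprc. In addition, the summed UMIs of 8 endothelial genes (Cdh5, Egfl7, Cldn5, Kdr, Emcn, Tie1, Vwf and Flt1) had to make up at least 0.1% of the barcode, with at least 2 of these genes seen, and the summed UMIs of 4 smooth muscle genes (Myh11, Acta2, Tagln and Myl9) had to stay under 0.5%. Of 5378 barcodes of days 3, 7 and 14 that passed the filters on genes and mitochondrial UMIs, 66 were members. The 8 genes chose the members, so their levels are a description and support nothing.

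The endothelium is the single layer of cells that lines the vessel, seals it through adherens and tight junctions, and keeps platelets and leukocytes from sticking to it. In large arteries it carries an arterial programme, with Notch signalling and gap junctions of the connexins encoded by Gja4 and Gja5, whereas veins and capillaries use other genes. Where the lining has been stripped off, endothelial cells bordering the gap divide and migrate over the bare wall. An activated endothelium puts selectins and other adhesion molecules on its surface, to which leukocytes and platelets bind.

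All groups were C57BL/6 mice on chow diet, male per the study's methods, and the injured mice were operated on at an age of 11 weeks on the left carotid artery. Day 0 was the uninjured artery, and days 3, 7 and 14 followed the injury, with 1 library per day, each from pooled vessels from which thrombosed ones had been left out. No transgene or lineage label marked endothelial cells, and dead cells were removed before capture. With no replicate of a day, no p-value is given, every interval is a 95% interval of counting error alone, and the day cannot be told apart from the library.

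Members made up 0.851% of 1528 barcodes at day 3 (13 barcodes, exact Clopper-Pearson interval 0.454 to 1.45%), 1.42% of 2749 at day 7 (39 barcodes, 1.01 to 1.93%) and 1.27% of 1101 at day 14 (14 barcodes, 0.697 to 2.12%). The 3 intervals overlapped. By the same criteria, 3 of 330 day 0 barcodes qualified (0.909%, 0.188 to 2.63%). A share of barcodes does not separate fewer endothelial cells from cells that digestion or capture lost.

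Members were shallow. Their median UMI count was 1272 at day 3, 1706 at day 7 and 1059.5 at day 14, which was 0.263, 0.269 and 0.111 times the median of their own library. Their summed UMIs came to 30241, 227742 and 26433. The deepest member alone gave 20.3% of these at day 3 (6141 UMIs), 22.5% at day 7 (51318 UMIs) and 37.6% at day 14 (9931 UMIs). The 6 deepest day 7 members held 14466, 14532, 17080, 23709, 29802 and 51318 UMIs, each more than any member of day 3 or 14. Summed day 7 values thus rest largely on these 6 members, and leaving out the deepest member removes only 1 of them. The median share of mitochondrial UMIs in members was 0.275%, 4.1% and 0.231%, against 3.08%, 4.07% and 2.57% over all filtered barcodes of these libraries. Depth and mitochondrial share thus differed between days along with the results below, and their part in them was not tested.

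Libraries also shared barcodes. Days 7 and 14 had 64 barcodes in common, of which 62 were deeper at day 7, with a median UMI ratio of 89.2 between the deeper and the shallower copy. Days 0 and 3 shared 152, and days 3 and 7 shared 1. Of the 14 day 14 members, 3 (816, 1007 and 1735 UMIs) carried the barcode of a day 7 barcode with 70449, 90321 and 138009 UMIs. In the opposite direction, the deepest day 7 member, with 51318 UMIs, had a day 14 copy of 618 UMIs that was no member. No day 3 member had a shared barcode. Some day 14 values are therefore also given without these 3 members, which leaves 11 members and 22875 UMIs.

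The name was checked against 24 endothelial genes that the criteria did not use. Day 7 and day 14 members held a median of 7 (0 to 24) and 7.5 (3 to 23) of these genes, and day 3 members a median of 3 (2 to 20). At day 3, 8 of 13 members showed only 2 of the 8 selecting genes, and 1 member, with 5128 UMIs, showed 5 of them and 20 of the 24 further genes. The 2 deepest day 3 members, with 5430 and 6141 UMIs, showed 6 and 5 further genes, fewer than the 10 to 24 of the day 7 members from 4258 UMIs up. The endothelial name was thus well covered in the deeper barcodes of days 7 and 14, and at day 3 it rested mostly on few UMIs.

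**Figure D1:**
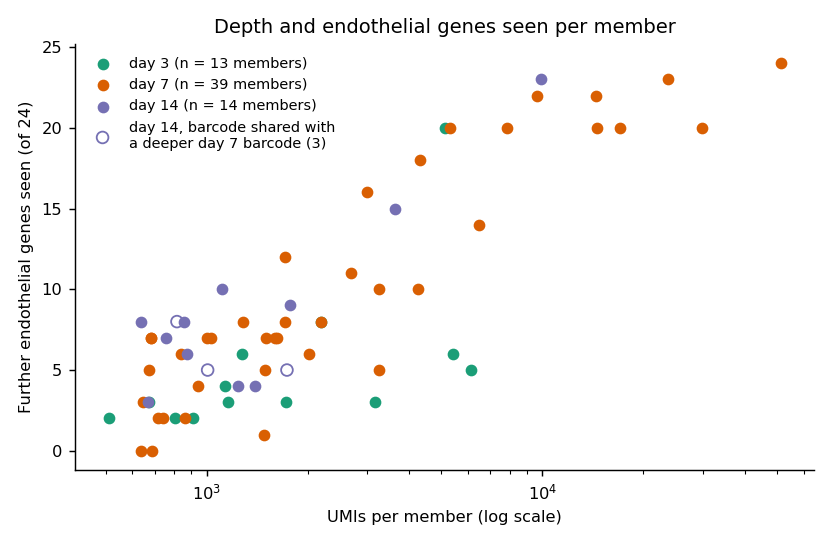
UMIs per member (x axis, log scale) against the number of 24 further endothelial genes seen in it (y axis), 1 point per member, coloured by day, with open points for the 3 day 14 members whose barcode recurs at greater depth at day 7. All members from 7860 UMIs up show 20 or more of the genes, whereas 12 of the 13 day 3 members show 8 or fewer.

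Leaving out the selecting genes, the genes with the highest ratio between members and all other barcodes were named endothelial genes for the most part. Pecam1, the adhesion molecule CD31 of endothelial junctions, had 471 UMIs in 50 of 66 members (75.8%) and stood at 1656 CPM (the usual unit of UMIs scaled to a common total, here over the members' summed UMIs), against 30.7 CPM in all other barcodes. Cytl1, which encodes a small secreted protein, stood at 2145 CPM against 10.9 CPM and was seen in 33 members (50%) and 2.2% of other barcodes. Podxl (731 against 3.63 CPM), a sialomucin of the luminal surface, and Gja5 (541 against 2.93 CPM), the arterial connexin 40, followed. The 15 leading genes further held Mmrn2, Ptprb, Selp, Esam, Bmx, Adgrf5, Nos3, Sox18, Mall, Bmp6 and Rasip1. They describe barcodes that were selected on related genes and carry no test. UMIs were pooled over days 3, 7 and 14, and day 7 gave most of them, so the ranking is mainly one of day 7. Cytl1 had 51, 525 and 34 UMIs at days 3, 7 and 14, Podxl 5, 195 and 8, and Gja5 9, 141 and 4.

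The promoters of 4 genes are shown because these genes mark the contrasts described below: Gja5 (arterial), Cytl1 (leading gene of the members), Selp (adhesion) and Aqp1 (higher at day 14). Each run is the 250 bases before the gene's start in RefSeq for GRCm38.p6, 5′ to 3′ on the gene's strand, and all 4 genes lie on the plus strand. The windows are chr3:97032152-97032401 for Gja5, chr5:37735269-37735518 for Cytl1, chr1:164115014-164115263 for Selp and chr6:55336049-55336298 for Aqp1. They lie upstream of the annotated start of each gene. Capitals mark words of 3 motifs searched on both strands: AGGAAG, a word bound by ETS factors such as ERG and FLI1, CCACCC, a word bound by KLF factors such as KLF2 and KLF4, and GGGA and CC with any 4 bases between them, a word of NF-kB sites.
Gja5: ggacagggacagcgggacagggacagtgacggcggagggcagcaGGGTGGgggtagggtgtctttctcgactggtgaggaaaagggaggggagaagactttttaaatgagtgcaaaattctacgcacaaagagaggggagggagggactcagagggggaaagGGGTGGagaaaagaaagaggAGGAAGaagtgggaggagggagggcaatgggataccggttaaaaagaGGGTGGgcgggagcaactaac
Cytl1: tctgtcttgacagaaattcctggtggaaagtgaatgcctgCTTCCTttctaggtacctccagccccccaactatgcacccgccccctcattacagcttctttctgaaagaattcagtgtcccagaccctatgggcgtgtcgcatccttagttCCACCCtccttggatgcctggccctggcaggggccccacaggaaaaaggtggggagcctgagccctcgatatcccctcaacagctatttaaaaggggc
Selp: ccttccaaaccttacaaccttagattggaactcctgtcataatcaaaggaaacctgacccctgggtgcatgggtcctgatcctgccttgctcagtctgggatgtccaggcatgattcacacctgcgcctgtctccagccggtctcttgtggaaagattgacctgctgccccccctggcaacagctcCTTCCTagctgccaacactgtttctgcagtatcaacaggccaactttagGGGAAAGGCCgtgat
Aqp1: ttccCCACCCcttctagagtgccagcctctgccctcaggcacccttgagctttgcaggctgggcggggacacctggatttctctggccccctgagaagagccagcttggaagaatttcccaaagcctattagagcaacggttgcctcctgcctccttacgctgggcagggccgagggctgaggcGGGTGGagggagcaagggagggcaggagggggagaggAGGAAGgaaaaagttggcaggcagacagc
The Gja5 window held the ETS word once and the KLF word 3 times, and the Cytl1 window held each of these once. The Selp window held the ETS word and, 15 to 6 bases before the start, the NF-kB word. The Aqp1 window held the ETS word once and the KLF word in 2 places. No 2 of these words overlapped. Among 32851 RefSeq promoter windows of 250 bases, 29.5% held the ETS word, 28.1% the KLF word and 17.6% the NF-kB word, so each match is a description of these letters and no binding site.

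The selecting genes themselves were unevenly covered. Cdh5, which encodes VE-cadherin of endothelial adherens junctions, had 10, 192 and 24 UMIs in 4, 27 and 11 members of days 3, 7 and 14, or 331, 843 and 908 CPM. Egfl7, a secreted endothelial factor, had 19, 199 and 27 UMIs in 12, 30 and 9 members, and Cldn5, the tight junction claudin, 10, 228 and 18 UMIs in 5, 25 and 7 members. Egfl7 thus carried the selection at day 3, in 12 of 13 members. Kdr, the main VEGF receptor, had no UMI at day 3 (which allows up to 99.2 CPM at 3 UMIs) and 14 and 3 UMIs at days 7 and 14. Emcn, endomucin, which is typical of veins and capillaries, had 16, 44 and 15 UMIs, and the angiopoietin co-receptor gene Tie1 3, 147 and 10. Vwf, the clotting factor stored for release by endothelium, had 11 UMIs in 1 member at day 3, 65 in 13 members at day 7 and 44 in 2 members at day 14. Flt1 had 2, 102 and 22 UMIs in 2, 21 and 4 members.

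The lowest share of selecting UMIs in a member was 0.114% at day 3, 0.135% at day 7 and 0.115% at day 14. Barcodes with at least 2 of the genes that missed the 0.1% limit reached at most 0.00788%, 0.00705% and 0.0255%, so no barcode lay just under it. The Ptprc condition left out 3, 12 and 1 barcodes of days 3, 7 and 14 that met the selecting-gene criteria. In 8 of these, Ptprc made up at most 0.01% of the UMIs, 2 at day 3 (62453 and 77731 UMIs, 1 Ptprc UMI each, 22 of the 24 further genes in both) and 6 at day 7 (26892 to 138009 UMIs, 1 to 8 Ptprc UMIs, 20 to 23 genes). Allowing Ptprc up to 0.01% of UMIs, an alternative chosen after seeing the data, gave 15, 45 and 14 members with 170425, 681350 and 26433 UMIs. These deep barcodes outweigh all other members of days 3 and 7. Levels of some named genes under this looser limit are set beside results of day 7 against day 3 below.

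The first comparison asks how endothelial-like cells of the early inflamed artery differed from those of day 7. Over 2401 genes with at least 20 UMIs in both sums together, 39.4% were more than 2-fold higher at day 7 and 16.8% more than 2-fold lower, on the scale of log2(CPM + 10), and the median log2 ratio was 0.49. A list is read against these shares and this median. A gene with no UMI in 1 of the days has no defined fold, and counts and medians are also given with such genes at their bound against 3 UMIs, or at no change where there is no bound, where that alters them.

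Arterial genes were among those higher at day 7. The 14 genes of the list stood at 2579 CPM at day 3 (78 UMIs in 9 members, 58 of them in the member of 5128 UMIs) and 6222 CPM at day 7 (1417 UMIs in 35 members), a ratio of 2.41 (1.92 to 3.07). Of 11 genes tested, 8 were past 2-fold higher and 0 lower, with a median log2 ratio of 2.50, or 7 and 1.81 with the 3 genes at 0 UMIs at their bound. The gap junction genes were among them. Gja5 had 9 UMIs in 2 of 13 members at day 3 and 141 UMIs in 21 of 39 at day 7, a ratio of 2.08 (1.07 to 4.64). Gja4, connexin 37, had 2 and 96 UMIs, a ratio of 6.37 (1.72 to 53.4), and under the looser Ptprc limit it stood at 99.8 and 384.5 CPM. Sema3g, an arterial semaphorin, had 0 UMIs at day 3 and 86 in 9 members at day 7, which makes it at least 3.81-fold higher against a floor of 3 UMIs over the day. Cytl1, also on the list, stood at 1686 and 2305 CPM, a ratio of 1.37 (1.02 to 1.86). When the selecting genes had to reach 0.2%, which left 6 day 3 members with 9185 UMIs, the list's ratio turned to 0.927. Without the deepest member of each day, which at day 3 held no arterial UMI, it was 1.83, and with Ptprc allowed up to 0.01% it was 2.75. The rise was not confined to arterial genes. Between the same days the venous list had a ratio of 3.98 (2.53 to 6.67), with 4 of 4 tested genes higher (3 at the bound). The capillary list had 4.85, on 4 and 146 UMIs. These 2 ratios became 2.57 and 1.48 with selecting genes at 0.2%, and 1.11 and 1.72 with Ptprc allowed up to 0.01%. The day 3 member of 5128 UMIs, the one with 20 further endothelial genes, had an arterial share of 1.13% of its own UMIs, within the range of day 7 members.

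Notch pathway genes stood at 364 CPM at day 3 (11 UMIs in 4 members) and 2042 CPM at day 7 (465 UMIs in 29 members), a ratio of 5.61 (3.11 to 11.3). Of 7 tested, 6 were higher and 0 lower, but 5 of the 7 had 0 UMIs at day 3, and at their bound 2 were past 2-fold higher. The list shares Dll4 and Jag1 with the arterial one, so the 2 results are not separate. Jag1, a Notch ligand, had 1 UMI at day 3 and 170 UMIs in 16 members at day 7, a ratio of 22.6 (4.00 to 897). Much of it lay in the deepest day 7 member, without which Jag1 stood at 425 CPM instead of 746 CPM. The ligand gene Dll4 had 0 and 23 UMIs, at least 1.02-fold higher, and the target genes Hes1 and Hey2 had 0 UMIs at day 3 and 66 and 39 at day 7, at least 2.92-fold and 1.73-fold higher. With Ptprc allowed up to 0.01%, the ratio of Notch genes was down to 1.89, below the interval above, and Jag1 stood at 188 CPM (32 UMIs) and 383 CPM.

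Basement membrane and angiogenic genes followed the same direction. Basement membrane genes stood at 1455 and 8088 CPM (44 UMIs in 9 members, 1842 UMIs in 39), a ratio of 5.56 (4.12 to 7.68), and 12 of 12 tested were past 2-fold higher (11 with genes at 0 UMIs at their bound). Col4a1, a chain of collagen IV, had 2 UMIs at day 3 and 219 in 24 members at day 7, a ratio of 14.5 (3.98 to 121). Its partner Col4a2 had 0 and 152 UMIs, at least 6.73-fold higher. Col18a1, whose fragment is endostatin, stood at 132 and 1339 CPM and Hspg2, perlecan, at 264 and 1133 CPM. All 6 tested genes of the tip cell list, which shares Col4a1, Col4a2, Lama4 and Sparc with the former, were also higher. Fibroblast-rule barcodes of the same libraries, defined by collagen genes, Dcn, Lum and Pdgfra, held basement membrane genes at 13020 and 22380 CPM, so these are also genes of the surrounding cells. With Ptprc allowed up to 0.01%, the basement membrane ratio was 1.64 and the tip cell ratio 1.72, Col4a1 stood at 458 and 718 CPM, Col4a2 at 176 CPM (30 UMIs) and 411 CPM, Col18a1 at 334 and 1017 CPM and Hspg2 at 704 and 737 CPM. Of the 12 basement membrane genes, only Col4a2, Col18a1, Lamb2 and Col15a1, the last with 0 UMIs at day 3, were then past 2-fold higher. Lama4 stood at 147 and 164 CPM, and Lamc1 turned, at 334.5 and 202.5 CPM. Of the 6 tip cell genes, only Mcam and Col4a2 were then past 2-fold higher.

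VEGF and angiopoietin pathway genes stood at 727 and 2108 CPM, a ratio of 2.90 (1.89 to 4.67), with 6 of 6 tested higher (4 at their bound), and 2.53 under the looser Ptprc limit. They comprised Vegfa, Flt4, Nrp1, Tek, Calcrl and Ramp2, that is the growth factor and receptors or co-receptors of vascular growth signals. Tek, the angiopoietin receptor TIE2, had 2 UMIs at day 3 and 68 in 14 members at day 7, a ratio of 4.51 (1.20 to 38.0), and under the looser limit it stood at 88.0 and 176 CPM. Junction genes had a ratio of 2.14 (1.71 to 2.70) with 8 of 13 tested higher (7 at the bound) and 0 lower, and the ratio became 1.04 with selecting genes at 0.2% and 1.08 with Ptprc allowed up to 0.01%. The list shares Gja4 and Gja5 with the arterial one. The 24 further endothelial genes, which served to check the name, also had a ratio of 1.84 (1.58 to 2.16), with 11 of 22 tested higher and 0 lower, and it turned to 0.971 with selecting genes at 0.2%. Under the looser Ptprc limit of 0.01% it was 1.20, and Pecam1 stood at 1684 and 1350 CPM. The part of the thinner endothelial coverage of day 3 members in the arterial, Notch and junction values was not tested.

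Genes that respond to blood flow or keep the endothelium quiet divided. The list had a ratio of 1.67 (1.41 to 2.00), with 8 of 14 tested higher and 1 lower. Klf2, a transcription factor induced by laminar flow, stood at 364 CPM (182 to 651) at day 3 and 1291 CPM (1148 to 1447) at day 7, and Klf4 at 66.1 and 602 CPM. Nos3, endothelial nitric oxide synthase, had 5 UMIs in 2 members and 99 UMIs in 21, a ratio of 2.63 (1.09 to 8.28). Procr, the endothelial receptor of protein C, went the other way, with 36 UMIs in 8 of 13 members at day 3 and 53 in 18 of 39 at day 7, a ratio of 0.195 (0.126 to 0.307). At day 3 it stood at 1190 CPM in members against 30.8 CPM in fibroblast-rule barcodes and 29.6 CPM in Ptprc-positive barcodes. With Ptprc allowed up to 0.01%, the flow list turned to 0.966, Nos3 stood at 223 CPM (38 UMIs) and 285 CPM, and Procr stood at 1584 and 382 CPM.

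Genes of dividing cells were lower at day 7. The 26 cell cycle genes stood at 2149 CPM at day 3 (65 UMIs in 12 of 13 members). At day 7 they stood at 391 CPM (89 UMIs in 17 of 39, 45 of them in the member of 23709 UMIs), a ratio of 0.182 (0.131 to 0.254). None of them reached 20 UMIs, so none was tested alone. Top2a, which untangles DNA in mitosis, had 4 and 7 UMIs, and Ube2c, of the mitotic exit machinery, 6 and 5. H2afz, a histone variant that dividing cells make in large amount, had 50 UMIs in 9 members and 54 in 14, a ratio of 0.143 (0.0958 to 0.215), and the tubulin gene Tuba1b a ratio of 0.147 (0.0853 to 0.254). Ccnd1, cyclin D1, stood at 992 CPM (669 to 1416) and 79.0 CPM (46.8 to 125). The day 3 member with 20 further endothelial genes held 1 of the 65 UMIs, and the others came from members showing 2 to 8 of these genes. With Ptprc allowed up to 0.01%, Ccnd1 stood at 774 and 467 CPM, H2afz at 1174 and 547 CPM and Tuba1b at 1549 and 335 CPM. Top2a then stood at 833 CPM (142 UMIs) and 235 CPM and Ube2c at 986 CPM (168 UMIs) and 167 CPM, so most day 3 UMIs of both genes lay in the 2 deep barcodes with 22 further endothelial genes. The list's ratio stayed between 0.0917 and 0.3501 in all alternatives run.

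Members with at least 1000 UMIs were thinned to 1000 UMIs and called cycling when they then held at least 3 UMIs of the cell cycle genes. At day 3, 3 of 9 were cycling (33.3%, 7.49 to 70.1%), after 4 shallower members had been left out. At day 7 it was 0 of 28 (0 to 12.3%), where 3 counts of the total allow up to 10.7%, with 11 left out. These shares come from 1 random draw, and that of day 7 was 5.0% with a mitochondrial limit of 10%, 4.0% with at least 3 selecting genes and 2.94% under the looser Ptprc limit. At day 14 it was 1 of 8 (12.5%, 0.316 to 52.7%), and 0 of 6 without members with shared barcodes (0 to 45.9%), where 3 counts of the total allow up to 50%. Unthinned, the shares were 61.5% of 13, 17.9% of 39 and 14.3% of 14. Neutrophils, which do not divide in tissue, gave 0 of 136 thinned barcodes at day 3 and 0 of 51 at day 7, at unthinned medians of 3043 and 3091 UMIs against 1272 and 1706 in members. Day 14 had no neutrophil barcode for this purpose. The interval of day 3 overlapped that of day 7. In fibroblast-rule barcodes, the thinned shares were 14.6%, 5.1% and 0.41%, with the same order of days 3 and 7.

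Several single genes and part of the glycolysis list were also higher at day 3. S100a6, which encodes a calcium-binding protein, had 457 UMIs in all 13 day 3 members and 529 in 34 of 39 day 7 members, and stood at 15110 CPM and 2323 CPM, a ratio of 0.154 (0.135 to 0.175). Without the deepest member of each day it stood at 9378 and 2199 CPM. In fibroblast-rule barcodes it stood at 4228 and 2070 CPM. Lgals1, galectin 1, had a ratio of 0.126 (0.0942 to 0.169) and S100a4 of 0.190 (0.154 to 0.235). Under the looser Ptprc limit of 0.01%, S100a6 stood at 6865 and 3534 CPM, Lgals1 at 3063 and 1201 CPM and S100a4 at 2940 and 2106 CPM, and in members under 3000 UMIs S100a6 stood at 7517 and 3195 CPM. Of 10 tested glycolysis and hypoxia genes, 5 were lower (Aldoa, Tpi1, Gapdh, Pgk1 and Eno1, enzymes of glycolysis) and 1 was higher (Vegfa). Pgk1 had 21 UMIs in 9 members and 32 in 12, a ratio of 0.202 (0.113 to 0.369), and 540 and 207 CPM under the looser Ptprc limit. The list's ratio of 0.492 (0.409 to 0.595) became 0.946 with selecting genes at 0.2% and 0.849 with Ptprc allowed up to 0.01%, where Aldoa stood at 287 and 288 CPM and Eno1 at 99.8 and 150 CPM. The 12 genes with the largest fold lower at day 7 by the naming rule further held Mif, Cycs, Erh, Eif6, Cox17, Ufm1 and Nme2.

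The genes with the largest fold higher at day 7 by the same rule all had 0 UMIs at day 3. Dcn, the fibroblast proteoglycan decorin, led them with 252 UMIs in 21 members, at least 11.2-fold higher. Dcn marks fibroblasts, which held it at 5469 and 6587 CPM, and the fibroblast marker list in members was higher at days 7 and 14. Its part in the matrix results was not tested. Of the others, Itga1, a collagen-binding integrin subunit, had 126 UMIs in 19 members (at least 5.58-fold), Sox4, a transcription factor, 109 in 15 (at least 4.82-fold) and Mcam, the endothelial and mural adhesion molecule CD146, 83 in 14 (at least 3.67-fold). Once Ptprc was allowed up to 0.01%, these 3 were no longer at 0 at day 3, and Itga1 stood at 99.8 and 317 CPM, Sox4 at 147 and 329 CPM and Mcam at 106 and 232 CPM, while Dcn stayed at 0 UMIs. Col4a2, Sema3g, Fosb, Wnk1, Mast4, Nktr, Fbln5 and Sfpq completed the 12. Under that limit Sfpq stood at 323 CPM (55 UMIs) and 304 CPM, so its direction turned, Wnk1 at 276 CPM (47 UMIs) and 340.5 CPM and Nktr at 117 and 198 CPM. Mast4 then stood at 76.3 and 338 CPM, Sema3g and Fosb had 1 UMI each at day 3, and Fbln5 had 0. In the fibroblast-rule barcodes, Itga1 stood at 13.0 and 49.4 CPM and Sox4 at 61.5 and 140 CPM.

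**Figure D2:**
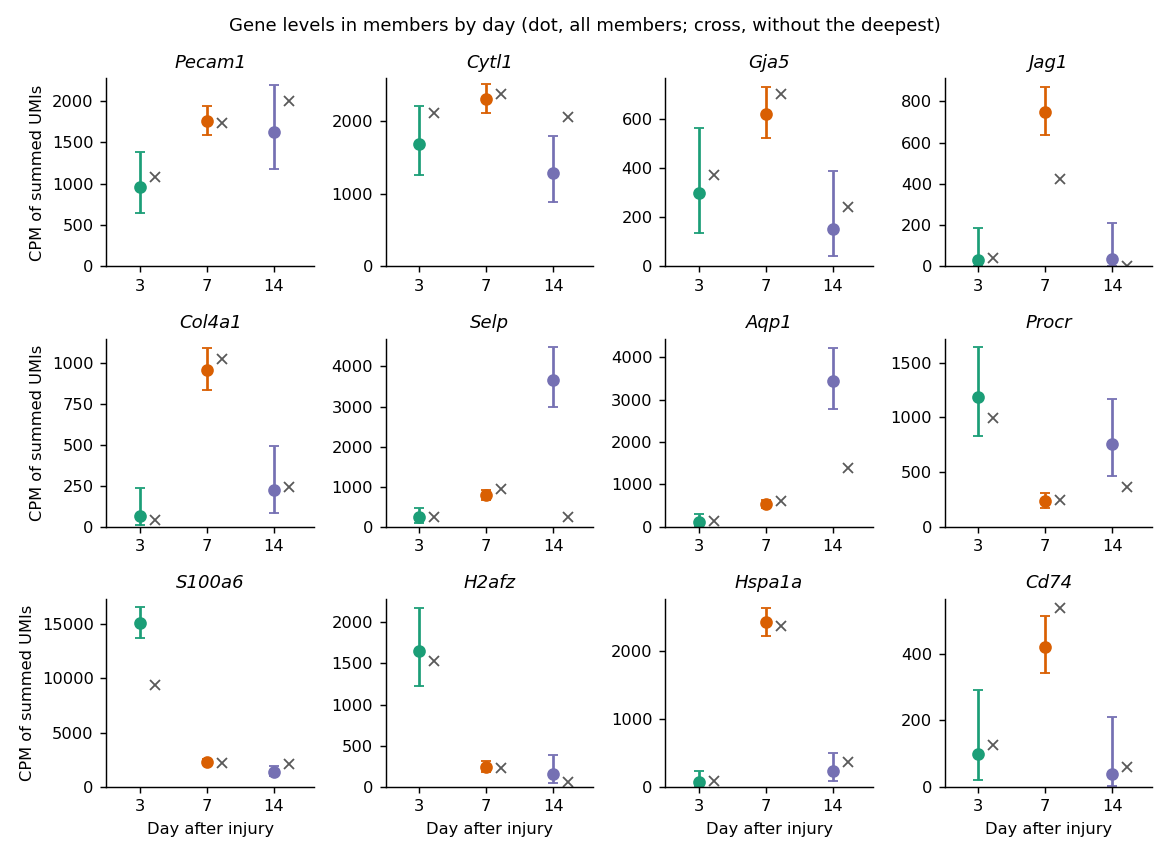
Levels of 12 genes in members at days 3, 7 and 14 (CPM of UMIs summed over members, linear axes from 0), with bars for the exact 95% Poisson interval of counting error and crosses for the level without the deepest member of each day. Gja5, Jag1, Col4a1, Hspa1a and Cd74 are highest at day 7, S100a6 and H2afz at day 3, and the high day 14 level of Selp is absent without the deepest member.

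The second comparison asks how members of the remodelling artery at day 14 differed from those of day 7. Of 2388 genes tested, 10.3% were past 2-fold higher at day 14 and 27.3% lower, with a median log2 ratio of -0.23.

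The arterial list as a sum was lower at day 14. It stood at 6222 and 2913 CPM (77 UMIs in 8 of 14 members at day 14), a ratio of 0.468 (0.367 to 0.589). Of these 77 UMIs, 11, 22 and 31 lay in 3 members with arterial shares of 1.64%, 1.25% and 0.852%. Those shares lay within the day 7 range of 0 to 1.91%, whereas the deepest day 14 member held 6 arterial UMIs. Of 11 tested genes, 7 were lower and 0 higher (Gja5, Gja4, Efnb2, Dll4, Jag1, Sema3g and Mecom), with a median log2 ratio of -1.65, or 6 and -1.46 with Dll4, which had 0 UMIs, taken as unchanged. Gja5 had 4 UMIs in 2 members, a ratio of 0.244 (0.0657 to 0.640), and Gja4 1 UMI, a ratio of 0.0897 (0.00225 to 0.512). Without members with shared barcodes the list's ratio was 0.534 (0.418 to 0.673), and without the deepest member of each day 0.726. It was below 1 in all alternatives run. Without members with shared barcodes, 7 arterial genes were lower and 1 higher. In members under 3000 UMIs Sema3g turned, at 34.0 CPM (1 UMI) at day 7 and 233 CPM (3 UMIs) at day 14.

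Notch genes were also lower, at 2042 and 757 CPM, a ratio of 0.371 (0.224 to 0.579). Of 7 tested, 6 were lower and 0 higher (3 lower with genes at 0 UMIs at their bound), and Dll4 and Jag1 among them are also on the arterial list. Jag1 was down to 1 UMI, a ratio of 0.0507 (0.00128 to 0.286). Dll4, Jag2 and Hey2 had no UMI at day 14. Jag2 and Hey2 were at least 1.24-fold and 1.51-fold lower, and the day 7 level of Dll4 lay under the day 14 floor of 3 UMIs, so no fold is given. Col4a1, with a ratio of 0.236 (0.0857 to 0.522), Col4a2, Hspg2 and Col18a1 were also lower, whereas Sparcl1 and Igfbp7, matrix-associated proteins of the vessel wall, were higher, at ratios of 10.2 (4.21 to 25.1) and 3.77 (2.33 to 5.96). The basement membrane list as a sum had a ratio of 0.814 (0.693 to 0.951), which turned to 1.185 with members weighted equally, 1.565 in members under 3000 UMIs and 1.04 without the deepest members, and in members under 3000 UMIs Col4a2 turned too, at 170 CPM (5 UMIs) and 233 CPM (3 UMIs). Vegfa had 59 UMIs in 11 members at day 7 and none at day 14, at least 2.28-fold lower, and the lymphatic and angiogenic receptor gene Flt4 had 20 and none, again under that floor.

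Antigen presentation and interferon-response genes were highest at day 7. MHC class II genes stood at 198, 1019 and 189 CPM in members (6, 232 and 5 UMIs in 5, 30 and 3 members), with ratios of 5.13 (2.32 to 14.1) for day 7 against day 3 and 0.186 (0.0597 to 0.440) for day 14 against day 7. Of the 232 day 7 UMIs, the member of 29802 UMIs held 91. Another 6, 11 and 23 lay in 3 members with 0 to 2 further endothelial genes and 2.04 to 3.38% of UMIs from the fibroblast list. Cd74, the invariant chain, had 3, 96 and 1 UMIs in 3, 22 and 1 members. In fibroblast-rule barcodes, the MHC class II list stood at 59.5, 481 and 40.7 CPM, with the same order of days. Cd74 stood at 9804 CPM in Ptprc-positive barcodes at day 7, and 78.3% of all non-member barcodes of that day had a Cd74 UMI, and the part of RNA from other cells in the members' value was not tested. Interferon-response genes stood at 1951, 2823 and 1475 CPM, and 2 day 7 members held 186 and 191 of that day's 643 UMIs. In members under 3000 UMIs this order was lost, at ratios of 0.965 and 1.01. Of the 11 interferon-response genes tested at day 14, 9 were lower (7 with genes at 0 UMIs at their bound) and 0 higher, with a list ratio of 0.523 (0.368 to 0.722). Gbp2, an interferon-induced GTPase, had 3, 132 and 3 UMIs in 3, 11 and 2 members.

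Heat shock and immediate early genes, which dissociation of a tissue also induces, differed between days. The 17 genes stood at 2050, 12680 and 18460 CPM, and 15 of 17 were higher at day 7 than at day 3. Hspa1a, an inducible HSP70, had 2, 551 and 6 UMIs in 2, 26 and 4 members, with ratios of 36.6 (10.1 to 303) and 0.0938 (0.0343 to 0.206), and Hspa1b, its near-identical copy, 7, 465 and 2 UMIs. Under the looser Ptprc limit of 0.01%, Hspa1a stood at 1121 and 1243 CPM at days 3 and 7 and Hspa1b at 1185 and 1089 CPM, so the difference between these days was lost, and the list's ratio was down from 6.18 (4.81 to 8.09) to 1.91. Reads of these copies may not be cleanly divided between them. At day 14, 5 genes were higher (Junb, Atf3, Ier3, Zfp36 and Nr4a1) and the 4 heat shock genes lower (Hspa1a, Hspa1b, Hsph1 and Dnajb1). In members under 3000 UMIs, Junb turned, at 1189 and 1011 CPM at days 7 and 14, and so did Atf3, at 476 and 311 CPM. Ier3, Zfp36 and Nr4a1 stayed higher at day 14 there. In fibroblast-rule barcodes the list stood at 6201, 10300 and 13840 CPM. Without the deepest members, the day 14 ratio of the list turned from 1.46 (1.32 to 1.60) to 0.833.

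Adhesion and activation genes were high at day 14 in 1 member. The list stood at 4351 CPM at day 7 and 16870 CPM at day 14 (446 UMIs in 12 members), a ratio of 3.88 (3.46 to 4.34), but the deepest day 14 member held 373 of these UMIs, and without the deepest member of each day the ratio turned to 0.838. Selp, P-selectin, had 179 UMIs in 21 of 39 members at day 7 and 97 in 5 of 14 at day 14. It stood at 786 and 3670 CPM, and at 935 and 242 CPM without the deepest members. Sele, E-selectin, had 26 UMIs in 3 members, Il6 46 in 2, Socs3, an inhibitor of cytokine signalling, 55 in 3, and Nfkbia, the inhibitor of NF-kB, 105 in 5. The Selp window printed above was the only one of the 4 to hold the NF-kB word, which 17.6% of RefSeq promoter windows held. A link between this word and the levels given here was not tested. Vcam1, the integrin ligand, stood at 1317 CPM (1172 to 1475) and 1929 CPM (1437 to 2537), and Icam1 at 470 and 492 CPM.

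The venous list, which shares Selp and Vcam1 with the adhesion list, followed the same member, with 162 of its 197 UMIs there. Its ratio of 2.98 (2.52 to 3.51) turned to 0.698 without the deepest members. Lrg1, a secreted glycoprotein on that list, had 0, 22 and 31 UMIs in 0, 8 and 4 members, and stood at 125 and 364 CPM at days 7 and 14 without the deepest members. The venous transcription factor gene Nr2f2 had 10 UMIs in 1 member at day 7 and 2 in 1 member at day 14. Most venous UMIs of day 14 thus came from 1 member, which held 6 of the 77 arterial UMIs.

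Aqp1, a water channel of capillary and other continuous endothelium, was seen in more day 14 members than Selp. Most of its day 14 UMIs also lay in the deepest member, and the 12 members under 3000 UMIs held 22 of the 91. Aqp1 had 3 UMIs in 1 of 13 members at day 3, 121 in 15 of 39 at day 7 and 91 in 11 of 14 at day 14. Its level was 99.2 CPM (20.5 to 290), 531 CPM (441 to 635) and 3443 CPM (2772 to 4227), and the last was 6.48 times (4.88 to 8.58) that of day 7. Without the deepest members it stood at 606 and 1394 CPM at days 7 and 14, and without members with shared barcodes at 3891 CPM in 9 of 11. In fibroblast-rule barcodes of day 14 it stood at 15.4 CPM, and in smooth muscle-rule barcodes at 136 CPM. The capillary list it belongs to had a day 14 ratio of 7.38 (5.76 to 9.43), or 1.94 without the deepest members, with 2 of 2 tested genes higher. The deepest day 14 member held 101 of the list's 125 UMIs of that day. Of these 125, Aqp1 held 91, Fabp4 29, all in that member, and Cd36 5 in 2 members, against 4 UMIs of Cd36 in 3 members at day 7. Car4, Gpihbp1, Aqp7, Tcf15 and Btnl9 had no UMI in any member.

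The remaining genes with the largest fold higher at day 14 by the naming rule included Gadd45g, a growth arrest gene, with 44 UMIs in 13 members and 106 in 4, a ratio of 20.8 (14.5 to 30.2). Without the deepest members it stood at 198 and 545 CPM. Plpp3, a lipid phosphatase that degrades lysophosphatidic acid, stood at 70.2 and 832 CPM, Insr, the insulin receptor, at 92.2 and 605 CPM, and Rnd1, a small GTPase, at 149 and 1059 CPM. The 12 day 14 members under 3000 UMIs held 3 of the 22 Plpp3, 2 of the 16 Insr and 4 of the 28 Rnd1 UMIs. AY036118, a non-coding transcript seen in 74.2% of other day 14 barcodes, stood at 641 and 3934 CPM. Those lower at day 14 and without a UMI there included Krit1, a junction-stabilising gene of endothelium, with 51 UMIs in 15 members at day 7 (at least 1.97-fold lower), H2-Ab1, Dock4, Efna5, Pde3a, Sav1, Serpinb6b, Tmem30a, Tnfaip2 and Tnrc6b.

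**Figure D3:**
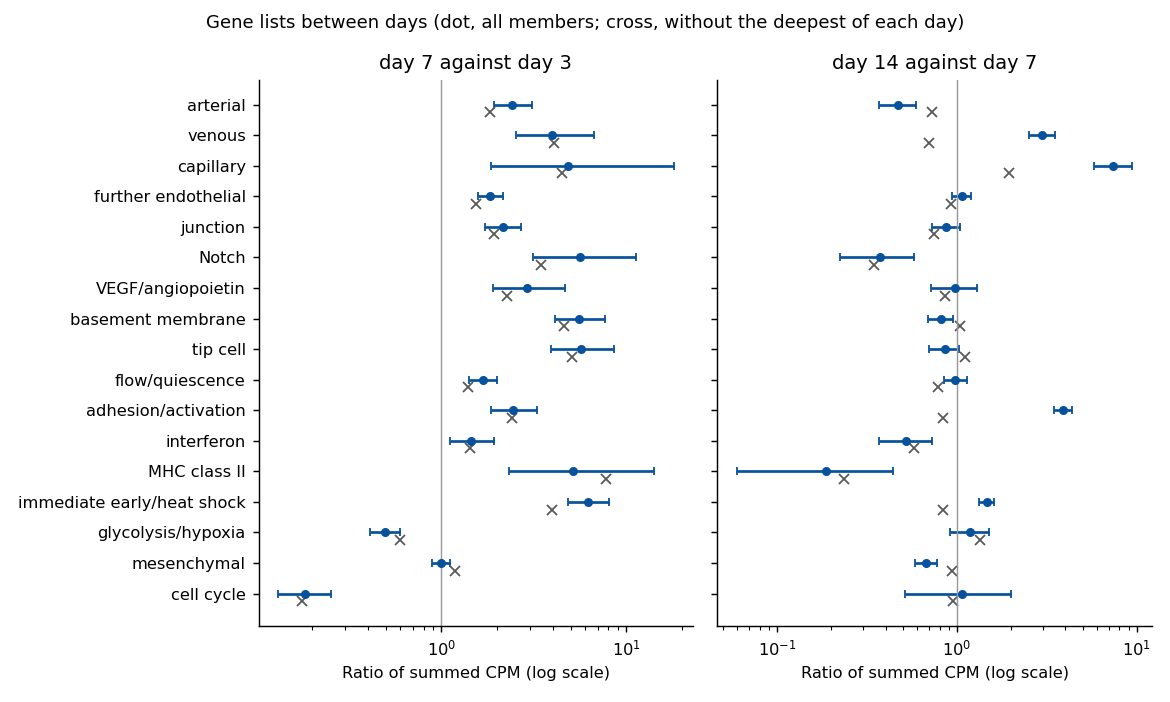
Ratio of summed CPM (x axis, log scale) for 17 gene lists, day 7 against day 3 (left) and day 14 against day 7 (right), with 95% counting intervals for all members and crosses without the deepest member of each day. Cell cycle genes lie lowest on the left at 0.182, and on the right the arterial list stays below 1 with and without the deepest members, whereas the crosses of the venous and adhesion lists lie on the other side of 1.

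Single members were also described by their arterial and venous UMIs. Arterial UMIs outnumbered venous ones in 8 of 13 members at day 3, 28 of 39 at day 7 and 5 of 14 at day 14 (5 of 11 without shared barcodes). Venous UMIs were more numerous in 2, 8 and 8 members (5 of 11 at day 14 without shared barcodes), and the rest were equal. Most of the day 3 arterial majorities were 1 or 2 arterial UMIs against 0 or 1 venous ones, and the lists differ in length, at 14 and 8 genes. In fibroblast-rule barcodes of days 3, 7 and 14 the arterial list stood at 482, 1540 and 1173 CPM and the venous list at 565, 803 and 377 CPM. These counts therefore do not assign single members a vessel type. The median share of arterial UMIs was 0.0632% (0 to 1.13%) at day 3, 0.41% (0 to 1.91%) at day 7 and 0.0707% (0 to 1.64%) at day 14. That of venous UMIs was 0% (0 to 0.593%), 0.124% (0 to 1.55%) and 0.207% (0 to 1.63%). The ranges of the 3 days overlapped for both lists. At day 0, all 3 qualifying barcodes held more arterial than venous UMIs, with arterial shares of 1 to 1.76%.

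**Figure D4:**
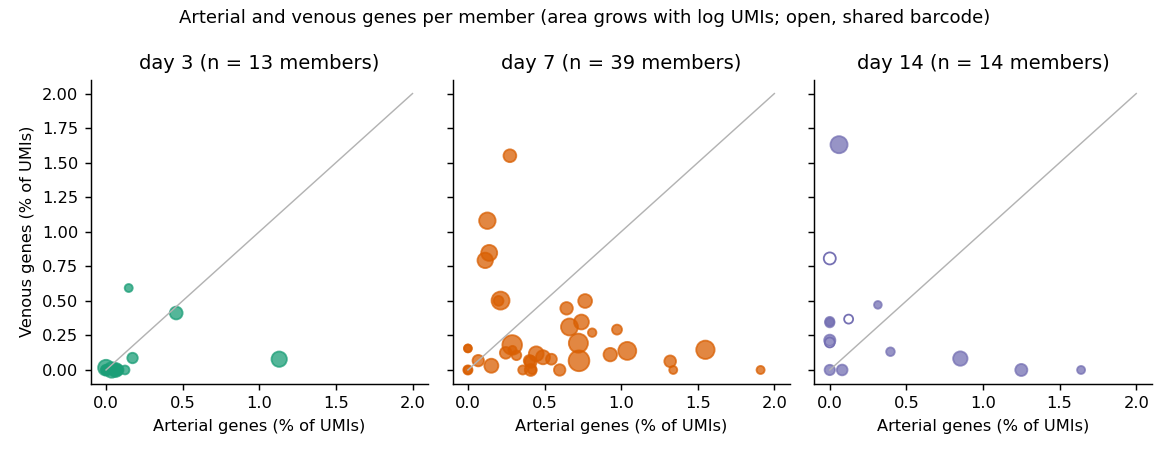
Share of arterial genes (x axis) and venous genes (y axis) in each member's UMIs, in percent, 1 panel per day, with larger points for deeper members, open points for members with a shared barcode and a line of equal shares. The day 14 member with the highest venous share, 1.63%, is the deepest of its day, and 28 of 39 day 7 members lie below the line.

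Genes that endothelial cells gain when they take on mesenchymal traits had a ratio near 1 between days 3 and 7 as a sum and were lower at day 14. The list stood at 11640, 11560 and 7793 CPM, with ratios of 0.993 (0.888 to 1.11) and 0.674 (0.582 to 0.777). The former became 1.42 with selecting genes at 0.2%, and the median log2 ratio of its tested genes was 1.16, or 0.79 with genes at 0 UMIs at their bound. At day 7, 7 of 11 tested genes were higher (5 at the bound), among them Zeb1, Fn1, Col1a1 and Col3a1, and S100a4 was lower, and at day 14 there were 0 higher and 7 lower (4 at the bound), among them Zeb1, Fn1, Tgfb1 and S100a4. Vim, vimentin, which endothelial cells express at rest, held 161 of 352, 1379 of 2632 and 128 of 206 UMIs. Fn1, fibronectin, had 5 UMIs in 3 members, 469 in 26 and 14 in 5, ratios of 12.5 (5.30 to 38.5) and 0.257 (0.140 to 0.436), and it stood at 675 CPM (115 UMIs) and 1924 CPM at days 3 and 7 under the looser Ptprc limit. Of the 19 genes on the list, 17 were seen, including the transition factors Snai1, with 0, 6 and 1 UMIs, and Twist1, with 1, 6 and 2, while Snai2 and Cdh2 had no UMI in any member. Col1a1 stood at 66.1, 386 and 492 CPM in members against 13160, 18840 and 20620 CPM in fibroblast-rule barcodes.

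Among markers of other cell types, fibroblast genes were the most abundant. The fibroblast list, at 827, 2810 and 3140 CPM, reached 2.9 to 3.38% of UMIs in 3 day 7 members with 0 to 2 further endothelial genes, against 52170, 73280 and 92570 CPM in fibroblast-rule barcodes. Of the 12 macrophage genes, 11 were seen, at 331, 277 and 189 CPM in all, with Adgre1 at 0, and Lyz2 stood at 99.2, 92.2 and 75.7 CPM against 6047, 5044 and 4877 CPM in Ptprc-positive barcodes. Neutrophil genes had 0, 2 and 2 UMIs, lymphocyte genes 0, 5 and 0, and platelet genes 0, 11 and 0, with Cd3d, Cd3e, Cd79a, S100a9, Ppbp and Gp9 at 0. Of 10 lymphatic genes, Prox1, Lyve1, Pdpn and 5 more had no UMI, Flt4 had 20 at day 7, and Fxyd6 had 3, 7 and 1. Under the looser Ptprc limit Lyve1 had 33 UMIs in 2 day 3 barcodes (194 CPM) and 16 in 2 day 7 barcodes, while Prox1 and Pdpn had none. Of 10 further smooth muscle and pericyte genes, 7 were seen, with 4, 15 and 9 UMIs (132, 65.9 and 340 CPM, a day 14 ratio of 5.17, 1.99 to 12.6), and Lmod1, Notch3 and Kcnj8 were at 0. No Schwann cell gene was seen.

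Beside the injured arteries, the 3 qualifying barcodes of day 0 (1619, 1796 and 9278 UMIs) give the only values of the uninjured lining. Their arterial list stood at 16310 CPM on 207 UMIs, against 2579, 6222 and 2913 CPM after injury, and Cytl1 gave 135 of these UMIs. Their adhesion list held 16 UMIs and their cell cycle list 5. Aqp1, Sele, Il6, Jag2 and Hes1 had no UMI there. With 3 barcodes, of which the deepest gave 73.1% of the UMIs, these are values of single barcodes and are not compared further.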

How the data were processed

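Single-cell RNA was measured in 4 libraries (days 0, 3, 7 and 14), of which days 3, 7 and 14 were compared. The authors deposited raw UMI counts per gene and barcode (31053 genes), made with a 10x 3′ kit. The file headers name Cell Ranger 3.0.2, and the mouse genome build was not clear from the sources used here, so no coordinate of the authors' annotation was used. The libraries held 18989081, 27973418 and 13329564 UMIs at days 3, 7 and 14, and 2672722 at day 0.

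Barcodes needed at least 200 genes and at most 20% mitochondrial UMIs. Members' counts were summed per day and expressed as CPM. Ratios compare summed CPM, with exact conditional binomial intervals, levels carry exact Poisson intervals and shares exact Clopper-Pearson intervals, all at 95% and for counting error only. A gene was tested with at least 20 UMIs in both sums together and counted as higher or lower past 2-fold after adding 10 CPM. Where a day had 0 UMIs, the bound used a floor of 3 UMIs over that day. Fibroblast-rule and smooth muscle-rule barcodes lacked Ptprc and held at least 1% of UMIs from at least 3 of their defining genes. Doublets were not removed in the values given, and leaving out the highest Scrublet scores (0.8% per 1000 barcodes) was an alternative.

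Named genes were the 15 leading genes of members against other barcodes, the 12 with the largest ratio each way in each comparison seen in at least 20% of members of the higher day, and genes of the lists. The members and lists were chosen with earlier results of these data known. Python 3.11.15, numpy 2.4.6, scipy 1.17.1, pandas 2.3.3, scanpy 1.11.5 and matplotlib 3.10.9 were used, and the computation was tested on simulated data. Alternatives covered the thresholds of the selection, depth, mitochondrial limit, weighting of members, the added CPM and the minimum of UMIs. Those on shared barcodes, on Ptprc up to 0.01% and on members under 3000 UMIs were chosen after seeing the data.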

Additional observations from a re-analysis of the deposited data

How the results depend on the processing

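With 1 library per day, the values describe these libraries, and the depth of members limits any gene with few UMIs. No paired analysis was possible because each day had 1 library and no replicate numbers. Each value that answers a comparison was set against the alternatives. Of these pairings of a value with an alternative, 167 counted as the same, 39 as moved and 2 as turned, and the cause was not tested. For the other list ratios, the pairings numbered 424, 87 and 15. A ratio near 1 could cross it and count as the same. The day 14 cell cycle ratio did so, at 0.763 with at least 3 selecting genes. The counts of genes past 2-fold (946 higher and 404 lower at day 7, 246 higher and 652 lower at day 14) became 4102, 1679, 1742 and 3734 with a minimum of 1 UMI, 314, 195, 83 and 167 with a minimum of 50 UMIs, and 77, 65, 39 and 42 in members under 3000 UMIs. At day 14 they became 570 and 1784 with Ptprc up to 0.01%, 158 and 411 with a mitochondrial limit of 10%, and 384 higher with members weighted equally. The day 3 share of members was 0.393% with selecting genes at 0.2% and 0.327% with at least 3 of them.

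For day 7 against day 3, the arterial ratio of 2.41 became 0.927 with selecting genes at 0.2%, 3.46 in members under 3000 UMIs and 1.83 without the deepest members. The cell cycle ratio of 0.182 became 0.3501 with at least 3 selecting genes and 0.0917 in members under 3000 UMIs. The adhesion ratio of 2.44 became 1.53 with Ptprc up to 0.01%, 1.72 in members under 3000 UMIs and 1.57 with a mitochondrial limit of 10%. The further endothelial genes turned to 0.971 and the flow list to 0.898 with selecting genes at 0.2%. The flow list turned to 0.966 and the lipid list to 0.730 with Ptprc up to 0.01%, and the interferon list to 0.965 in members under 3000 UMIs.

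For day 14 against day 7, the arterial ratio of 0.468 became 0.769 with Ptprc up to 0.01%, 0.636 with members weighted equally and 0.726 without the deepest members. The cell cycle ratio of 1.06 became 0.298 with Ptprc up to 0.01% and 0.763 with at least 3 selecting genes. Without members with shared barcodes it was 0.671 (0.24 to 1.52). The adhesion ratio of 3.88 became 2.69 with Ptprc up to 0.01%, 4.55 with at least 1000 UMIs, 4.34 with at least 3 selecting genes, 6.02 with a mitochondrial limit of 10%, 1.37 with members weighted equally, 1.24 in members under 3000 UMIs and 0.838 without the deepest members. The venous list turned to 0.698 without the deepest members. The basement membrane list turned to 1.185 with members weighted equally, 1.565 in members under 3000 UMIs and 1.04 without the deepest members. Under the same 3 settings the stress list turned to 0.867, 0.678 and 0.833, and under the first 2 the lipid list turned to 0.910 and 0.684. The interferon list turned to 1.01 in members under 3000 UMIs. Without members with shared barcodes, the ratio was 0.385 for the Notch list, 0.129 for MHC class II genes and 0.56 for the mesenchymal list. It was 1.62 for the stress list, 4.06 for the adhesion list and 3.11 for the venous list. The cycling share of day 14 was 0.0% with at least 3 selecting genes and 0.0% without shared barcodes, and that of day 7 was 17.9% when not thinned.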

Other observations

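Lipid and scavenger genes stood at 1323, 2779 and 3707 CPM in members of days 3, 7 and 14, with ratios of 2.1 (1.53 to 2.97) and 1.33 (1.07 to 1.65). Neither direction held throughout, since the former turned to 0.730 with Ptprc up to 0.01%, where Fabp5 stood at 1919 CPM at day 3, and the latter to 0.910 with members weighted equally and 0.684 in members under 3000 UMIs. Of 4 tested genes, Ctsd and Ctsl, which encode lysosomal proteases, were higher at day 7 (39.4% of all genes tested were), and at day 14 Ctsl was higher and Ctsd lower. In fibroblast-rule barcodes the list stood at 2778, 3309 and 4055 CPM, with the same order of days. Red cell genes had 6, 9 and 1 UMIs in 2, 7 and 1 members, and mesothelial genes 1 UMI in all, at day 7.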
